A study of Mus musculus with 14 samples.

Results

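The immediate early genes are the first genes that a cell transcribes when a growth factor, a depolarization or another signal reaches it, and they need no new protein to be switched on. Kinases of the ERK and calcium pathways act on factors already bound to DNA, such as SRF at the CArG box and CREB at the cyclic AMP response element (CRE), and transcription starts within minutes and stops again soon after. In brain these transcripts are widely used as a readout of recent neuronal activity. Genes were chosen by symbol: Fos, Fosb and Fosl2 (Fos family) and Jun and Junb (Jun family), whose proteins pair as the transcription factor AP-1; Egr1 and Egr2, zinc finger factors; Nr4a1, an orphan nuclear receptor; Npas4, a bHLH-PAS factor; and Arc, which encodes a protein of the synapse. Each symbol was read from the deposited gene tables, taking the row with the highest mean where several shared a symbol. All 10 genes were found among the 41934 genes of the tables.

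RNA was sequenced from whole brains of 14 male C57BL/6J mouse fetuses, littermates from matings of Dio3+/- parents, each brain being 1 library. The dams were killed with carbon dioxide, and the uteri were kept on ice-cold saline until the brains were taken and frozen. Any effect of this handling on the immediate early transcripts was not tested. At E13.5 (embryonic days are written E) there were 4 Dio3+/+ and 2 Dio3-/- fetuses, and at E18.5 there were 3 Dio3+/+ and 5 Dio3-/- fetuses. Dio3 encodes the type 3 deiodinase, which inactivates thyroid hormones, and the Dio3-/- fetuses carried point mutations in every tissue that remove the enzyme activity but leave a transcript. The libraries were sequenced in separate batches with different rRNA depletion kits, which the authors adjusted for before averaging.

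The study asked how the loss of this enzyme changed gene expression in the fetal brain at each age. For each age, the value used here was the mean normalized count of a gene over all libraries of that age, both genotypes together. Values per library were not analysed here, so no spread between fetuses, no genotype comparison and no test is given, and every difference below is a description of pooled means. Dio3 itself had a mean of 99.0 normalized counts at E13.5 and 129 at E18.5. Being pooled over genotypes, and because the mutant allele is transcribed, it does not check the labels. The direction is opposite to the paper's qPCR of wild type brains of both sexes, where Dio3 was lower at E18.5 than at E13.5. The paper's qPCR also found more Dio3 mRNA in Dio3-/- than in Dio3+/+ brains at both ages. Dio3-/- fetuses made up 33.3% of the libraries at E13.5 and 62.5% at E18.5. The part of this in the pooled Dio3 means was not tested. The depth of each library could not be read from means; the paper gives a range of aligned reads for the first batch only.

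The DNA in front of the genes is given first, because the members share signals that act there. The RefSeq promoter table (GRCm38.p6, the build of the gene tables) held 8 of the 10 genes, Arc and Egr1 being the exceptions, with 12 windows of 250 bases before and 50 after a transcription start, 5 of them windows of Egr2, of which 3 overlap. The 6 sequences below are the 250 bases before the start, on the strand of the gene, in lower case. Capitals mark the short CRE (TGACG, either strand), the CArG box (CC, 6 of A or T, GG), the Egr site (GCGNGGGCG, either strand) and the TATA box (TATAAA, gene strand). Fos and Fosb are shown as the pair of related genes with both members low, Fosl2 as the gene with the largest shift between the ages, Egr2 as the gene near 0 with the CArG box, and Nr4a1 and Npas4 for their groups of short CREs.
Fos, chr12:85473640-85473889, + strand: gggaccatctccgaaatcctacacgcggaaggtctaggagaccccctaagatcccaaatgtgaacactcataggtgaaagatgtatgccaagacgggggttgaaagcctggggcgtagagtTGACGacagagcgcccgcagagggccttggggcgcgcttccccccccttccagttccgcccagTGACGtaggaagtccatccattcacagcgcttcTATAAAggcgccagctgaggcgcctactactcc
Fosb, chr7:19310046-19310295, - strand: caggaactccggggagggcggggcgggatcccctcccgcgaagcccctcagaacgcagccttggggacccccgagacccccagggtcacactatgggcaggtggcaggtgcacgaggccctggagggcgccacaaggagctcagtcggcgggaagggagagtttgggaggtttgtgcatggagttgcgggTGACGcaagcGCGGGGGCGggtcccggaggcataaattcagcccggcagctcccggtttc
Fosl2, chr5:32136222-32136471, + strand: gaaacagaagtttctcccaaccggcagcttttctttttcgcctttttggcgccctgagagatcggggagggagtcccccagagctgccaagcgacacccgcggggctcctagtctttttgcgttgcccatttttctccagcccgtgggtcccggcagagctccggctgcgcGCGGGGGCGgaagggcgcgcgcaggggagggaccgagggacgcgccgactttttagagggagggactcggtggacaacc
Egr2, chr10:67537619-67537868, + strand: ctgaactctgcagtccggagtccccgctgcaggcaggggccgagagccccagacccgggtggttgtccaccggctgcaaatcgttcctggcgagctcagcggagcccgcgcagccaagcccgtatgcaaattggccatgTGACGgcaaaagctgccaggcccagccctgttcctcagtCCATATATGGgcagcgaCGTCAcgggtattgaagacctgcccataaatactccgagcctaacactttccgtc
Nr4a1, chr15:101266596-101266845, + strand: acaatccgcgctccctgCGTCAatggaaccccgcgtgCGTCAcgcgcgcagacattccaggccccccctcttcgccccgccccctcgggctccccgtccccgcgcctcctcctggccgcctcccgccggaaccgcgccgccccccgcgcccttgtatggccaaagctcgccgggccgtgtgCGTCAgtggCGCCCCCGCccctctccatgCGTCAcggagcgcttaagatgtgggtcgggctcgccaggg
Npas4, chr19:4989972-4990221, - strand: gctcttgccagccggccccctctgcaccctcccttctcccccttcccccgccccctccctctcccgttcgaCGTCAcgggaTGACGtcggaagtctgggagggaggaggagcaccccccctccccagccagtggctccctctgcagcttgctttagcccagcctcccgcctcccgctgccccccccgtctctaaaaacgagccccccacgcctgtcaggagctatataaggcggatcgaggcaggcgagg

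The CArG box, the site of SRF, was found in Egr2 only, in 4 of its 5 windows, 3 of which overlap and share 1 site, and from base -72 to -63 of the one shown; 1.63% of the 32851 promoters in the table held it. The known SRF site of Fos lies further upstream than these windows reach. No window of the 8 genes held the complete CRE (TGACGTCA), which 1.79% of all promoters held. The short CRE TGACG, which the complete CRE contains, was searched after that result was seen. It was present in 6 of the 8 genes (Fos, Fosb, Junb, Egr2, Nr4a1 and Npas4). Counted by window, it was in 8 of their 12 windows, the 3 overlapping windows of Egr2 among them, and in 20.8% of all promoters. Fos carried it from -129 to -125 and from -66 to -62, Nr4a1 carried 4 copies between -233 and -36, and Npas4 carried a pair on opposite strands, pointing away from each other, from -179 to -165. The windows of Fosl2 and Jun held none.

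The Egr site, bound by the proteins of the Egr genes, was present in Fosb, Fosl2 and Nr4a1 and in 5.55% of all promoters. In Fosb it ended at -42 and in Fosl2 at -71. The Sp1 box (GGGCGG, either strand), which overlaps the Egr site, was found in 7 of the 8 genes. Counted by window, it was in 8 of the 12 windows and in 35.7% of all promoters. A TATA box stood from -33 to -28 in Fos, and 8.32% of promoters held TATAAA. In Junb TATAAA stood from +1 to +6 of the RefSeq start (84978748, - strand). That start lies upstream of the GENCODE start of Junb (84978718), so TATAAA lies before the GENCODE start. The AP-1 site (TGANTCA, either strand; 7.81% of promoters), the Nr4a site (AAAGGTCA, either strand; 1.51%) and the thyroid hormone receptor core site (AGGTCA, either strand, contained in the Nr4a site; 16.3%) were in none of the members' windows. The window of Jun held TGACATCA, close to the complete CRE (TGACGTCA), which no pattern searched here matches. It was read from the sequence afterwards, and its share over all promoters was not counted. All of these are matches of letters in a short window, and factor binding was not measured.

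**Figure D1:**
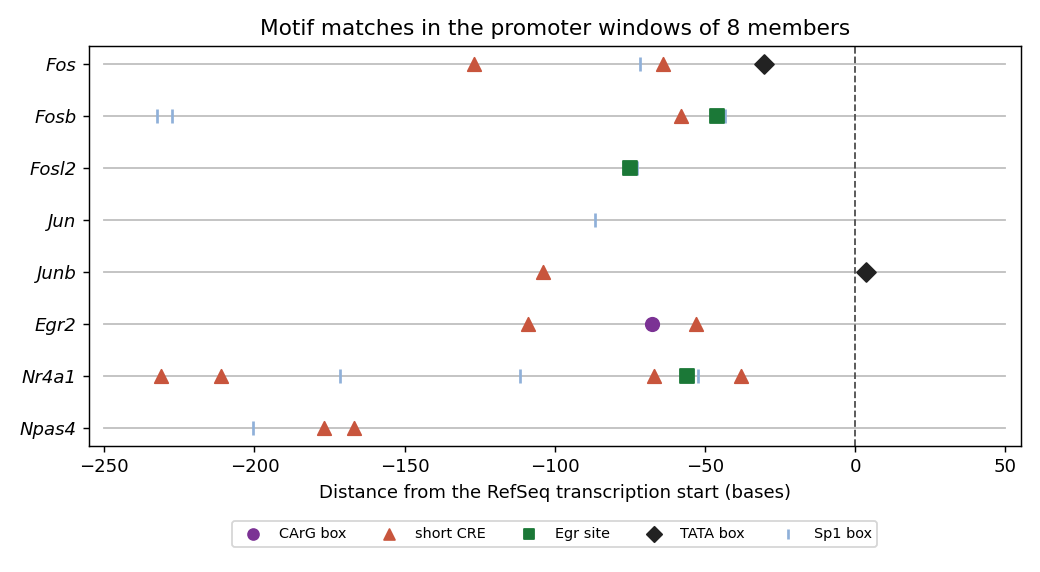
Positions of motif matches (symbols) along the window from 250 bases before to 50 bases after the RefSeq transcription start (x axis, bases; dashed line, the start) for the 8 genes found in the promoter table, with 1 of the 5 Egr2 windows drawn. Short CREs are spread over 6 genes, and the CArG box is in Egr2 alone.

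Among the members, Jun had the highest mean at E13.5, Fosl2 and Jun had the highest means at E18.5, and Egr2 was close to absent at both ages. Jun, the main partner of the Fos proteins in AP-1, had a mean of 1712 normalized counts at E13.5 and 1409 at E18.5, at percentiles 86.8 and 87.1 among the genes above 0 and 78.1 and 78.5 among the protein-coding ones. Egr2, known in the embryo for the hindbrain rhombomeres and for Schwann cells, had means of 0.566 and 0.251. Summed over the libraries this is 3.39 and 2.01 normalized counts, just above a floor of 3 counts at E13.5 and under it at E18.5. Both means were under the minimum of 10 set for a shift, so none is given. The Schwann cell and neural crest markers were present in the same means, their summed level being 545 at E13.5 and 839 at E18.5.

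**Figure D2:**
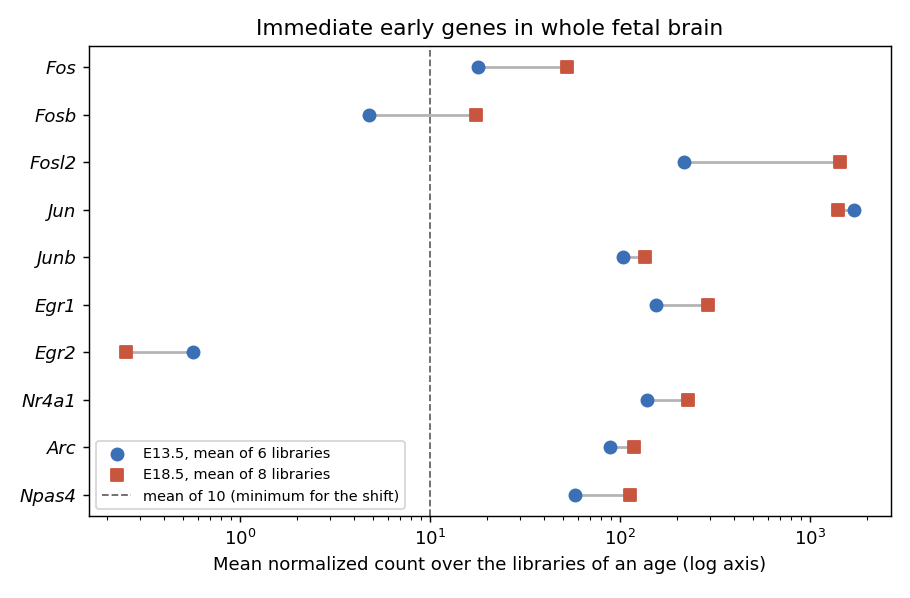
Mean normalized count of each gene (x axis, log scale) at E13.5 (circles, 6 libraries) and E18.5 (squares, 8 libraries), both genotypes pooled and without error bars because values per library were not used; the dashed line is the minimum of 10. Jun lies near the right edge at both ages (1712 and 1409), Fosl2 moves from 218 to 1447, and Egr2 lies below 1.

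Among the members, the means differed most between the ages for the 3 Fos genes. The tables of the 2 ages were normalized separately, so the shift of a gene is given as the log2 of the E18.5 mean over the E13.5 mean after subtracting the median of that value (-0.28) over the 17794 genes with a mean of at least 10 at both ages. A gene is called past the fold where its centred shift is over 1 in size, a 2-fold difference. Over all 17794 genes, 12.1% were higher at E18.5 past the fold and 5.61% were lower. Of the members, 8 reached the minimum of 10 at both ages, and 4 of them (Fos, Fosl2, Egr1 and Npas4) were higher past the fold and 0 lower. Fosb was under the minimum at E13.5 and Egr2 at both ages. The nearest values on either side of that threshold were Egr1 at 1.20 and Nr4a1 at 0.998. The Dio3-/- share of the libraries was 33.3% at E13.5 and 62.5% at E18.5, so age and genotype mix cannot be told apart in any shift. The paper does not say how the batches and kits fell over the ages, and their part in the shifts was not tested.

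**Figure D3:**
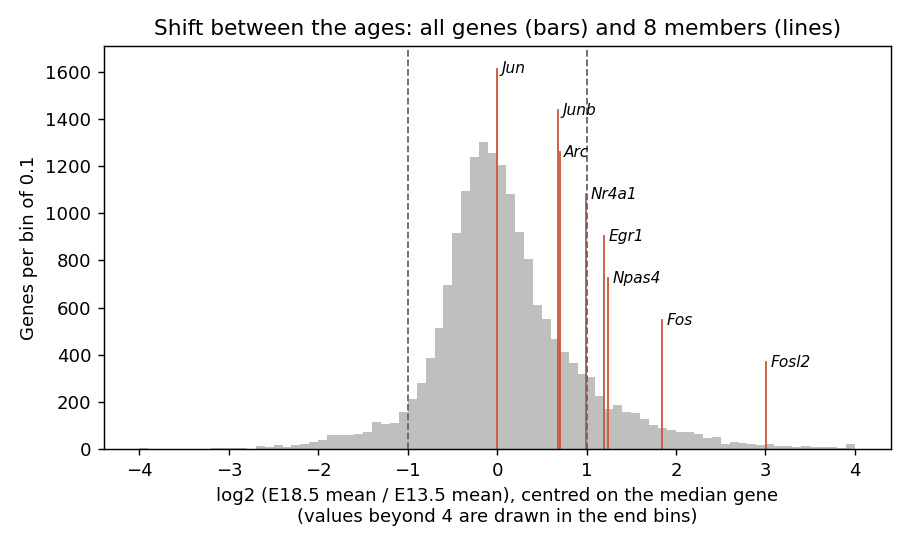
Distribution of the centred shift (x axis, log2 of the E18.5 mean over the E13.5 mean, less the median) over 17794 genes (grey bars, y axis, genes per bin of 0.1), with the 8 members that reached the minimum as lines of arbitrary height and the 2-fold limits dashed. Fosl2 (3.01) and Fos (1.84) lie in the right tail, and Jun (0.003) lies at the centre.

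Fosl2 encodes FRA2, a Fos protein whose transcript is known to last longer after stimulation than that of Fos. The gene lies on chr5:32135801-32157842 on the + strand, with 4 exons in its longest transcript. Its mean was 218 at E13.5 and 1447 at E18.5, a centred shift of 3.01 or 8.07-fold, above 99.3% of the genes compared. Without centring the ratio of its means was 6.63. Its percentile among the genes above 0 was 65.2 at E13.5 and 87.4 at E18.5, where it stood beside Jun. Among the protein-coding genes the percentiles were 43.1 and 78.9.

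Fos, the gene that gave the class its name, lies on chr12:85473890-85477273 on the + strand. Its mean was 17.9 at E13.5 and 52.6 at E18.5, a centred shift of 1.84 or 3.59-fold. It stood at percentiles 45.9 and 57.2 among the genes above 0, and at 24.8 and 33.2 among the protein-coding ones. Fosb, on chr7:19302696-19310051 on the - strand, encodes FOSB and its truncated, long-lived form. Its mean was 4.81 at E13.5 and 17.5 at E18.5, a ratio of 3.64 before any centring. All 3 Fos genes thus had the higher mean at E18.5, and the ratio was largest for Fosl2.

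The Jun genes differed less between the ages. Jun, a gene of 1 exon on chr4:95049034-95052222 on the - strand, had a centred shift of 0.003, at percentile 50.2 of all shifts. Its raw mean was lower at E18.5 (ratio 0.823), so its direction depends on the centring. Junb, a Jun protein that can restrain the activity of Jun, lies on chr8:84974484-84978718 on the - strand and had means of 103 and 136, a centred shift of 0.68. Part of both genes is shared with a gene of the opposite strand, 7.28% of the exon bases of Jun with Junos and 7.52% of those of Junb with Prdx2. Reads were counted without strand, so reads from these stretches cannot be assigned to one gene.

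Egr1 and Npas4, both transcription factors induced by neuronal activity, were past the fold. Egr1, at chr18:34859823-34864984 on the + strand, had means of 155 and 292, a centred shift of 1.20. Npas4, which is induced by calcium entry in neurons and acts on inhibitory synapses, lies on chr19:4984355-4990316 on the - strand and had means of 58.5 and 114, a centred shift of 1.24. Without centring, the shifts were 0.91 for Egr1 and 0.96 for Npas4, under the 2-fold limit. The positions of both shifts were close to each other, at percentiles 90.8 and 91.3 of all genes compared.

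Nr4a1 (NUR77), on chr15:101254269-101274795 on the + strand, had means of 140 and 229 and a centred shift of 0.998. Arc, which encodes a capsid-like protein that takes part in removing AMPA receptors from synapses, lies on chr15:74669083-74672570 on the - strand. Its means were 89.1 and 119, a centred shift of 0.70. Neither was past the fold, and Arc had nearly the same shift as Junb.

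Levels of different genes were compared per kilobase of the longest transcript. At E13.5 Jun led with 537 normalized counts per kilobase, followed by Junb (57.2), Nr4a1 (54.7), Egr1 (34.5), Fosl2 (33.4), Arc (29.2), Npas4 (15.4), Fos (8.47), Fosb (1.27) and Egr2 (0.19). At E18.5 Jun again led with 442 per kilobase and Fosl2 was next with 221, ahead of Nr4a1 (89.8), Junb (75.4), Egr1 (65.1), Arc (39.0), Npas4 (30.02), Fos (24.96), Fosb (4.63) and Egr2 (0.085). The move of Fosl2 from the fifth to the second place was the main change in the order. Whether neighbours in either order differ beyond the spread between fetuses was not tested. Per kilobase of all exons joined, Fosl2 and Arc changed places at E13.5 and so did Junb and Egr1 at E18.5.

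**Figure D4:**
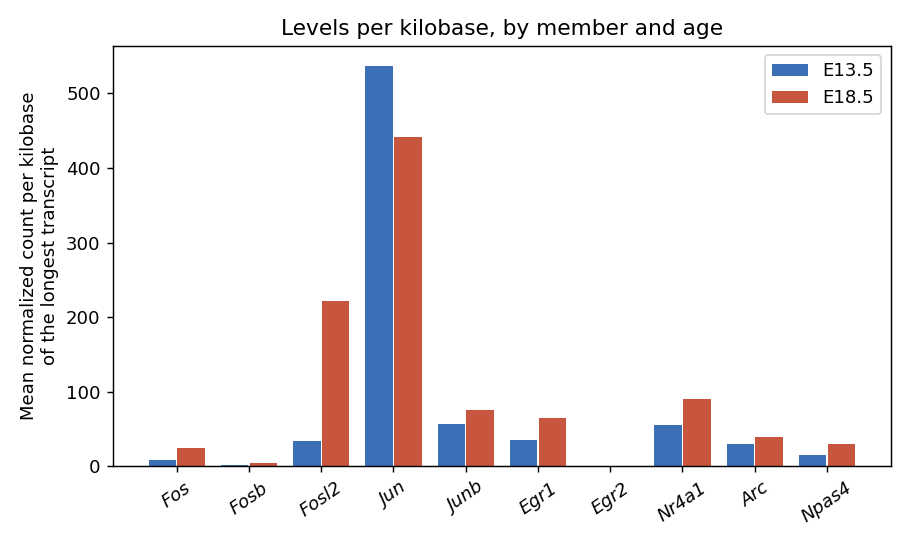
Mean normalized count per kilobase of the longest transcript (y axis, linear from 0) for each gene at E13.5 and E18.5 (bars), genotypes pooled and no error shown. Jun has the highest bar at both ages (537 and 442), and the Fosl2 bar at E18.5 (221) is the next highest.

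Among the AP-1 genes that are members, the makeup of the transcripts differed accordingly between the ages. Per kilobase, the 3 Fos genes among the members summed to 43.2 at E13.5 and 251 at E18.5, while Jun and Junb summed to 594 and 517. Fosl1 (2.33 and 1.68 per kilobase) and Jund are not in these sums. Fosl2 made up 77.4% of the sum of the 3 Fos genes at E13.5 and 88.2% at E18.5. The ratio of Jun to Fosl2 per kilobase was 16.1 at E13.5 and 2.00 at E18.5, and that of Jun to Fos was 63.4 and 17.7. Within the Jun family the ratio of Jun to Junb was 9.38 and 5.86. These are transcript levels in a whole brain, where fewer cells of a type and less RNA per cell cannot be told apart.

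Other genes of the same response were read from lists chosen by function. The counts of these lists stand beside the shares over all 17794 genes, 12.1% higher and 5.61% lower past the fold. Among 9 other AP-1 proteins and dimer partners, 5 reached the minimum at both ages and 0 were past the fold in either direction, with a median centred shift of 0.34. The small Maf protein Mafg had the highest level per kilobase of that list (374 at E13.5 and 389 at E18.5). Jund, the remaining Jun gene, was listed at 0 at E13.5 and at 0.13 at E18.5. It is named after its values were seen. In the GENCODE M21 annotation, 52.6% of its exon bases are shared with Gm11175 on the opposite strand, and a read on shared bases is not counted in the mode used; the part of this in the value was not tested.

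Of 14 other immediate early transcription factors, 13 reached the minimum, 2 were higher past the fold and 1 was lower, with a median of 0.22. Over all genes compared, 12.1% were higher and 5.61% were lower. Egr3, a relative of Egr1, had means of 50.2 and 220, a centred shift of 2.42. Nr4a3, a relative of Nr4a1, had means of 511 and 1846, a centred shift of 2.14. The third gene of that receptor family, Nr4a2, which is needed in dopamine neurons, had means of 1835 and 1545 and a shift of 0.04. Ier2 was lower past the fold, at 352 and 134, with a shift of -1.11. The Nr4a family thus held members with unlike shifts, while Egr1 and Egr3 were both higher past the fold. Egr4, named after its values were seen, was listed at 0 at E13.5 and had a mean of 18.6 at E18.5.

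Against shares of 12.1% higher and 5.61% lower over all genes, the effectors had calls in both directions. Of 22 immediate early effectors, 21 reached the minimum, 4 were higher past the fold and 3 were lower, with a median of 0.03. Those lower were Gadd45g (682 and 118, shift -2.25), Btg2 (1995 and 409, shift -2.003) and the ERK phosphatase Dusp4 (5071 and 1433, shift -1.54). Gadd45g and Btg2 are known to be active in neural progenitors leaving the cell cycle. Those higher were Dusp5 (41.7 and 103, shift 1.59), and Ier3 (1.47), Bdnf (1.35) and Nptx2 (1.15), the last 3 named after their values were seen. Bdnf, a neurotrophin, and Nptx2, a secreted synaptic protein, are targets of activity in neurons.

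The upstream factors were unlike in their shifts. The shares over all genes were 12.1% higher and 5.61% lower past the fold. Of the 6 genes of SRF and its cofactors and the 8 of CREB and its coactivators, all reached the minimum and 0 were past the fold, with medians of 0.05 and -0.14. Srf had means of 968 and 842 and Creb1 had means of 6353 and 4452. Among the MEF2 factors, which also act at activity-induced promoters, Mef2c had means of 1029 and 11668, a shift of 3.79, and Mef2a and Mef2d had shifts of 0.85 and 0.76. Of 11 ERK and calcium kinases, 3 were higher past the fold and 0 lower, namely Camk4 (2.85), Camk2b (2.47) and Camk2a (1.17), while Mapk3, which encodes ERK1, had a shift of 0.64. Of 7 partners of the members, Rxrg, a dimer partner of nuclear receptors, was higher (2.42) and Rxra was lower (-1.06) past the fold. Arnt2, the partner of Npas4, had a shift of -0.06.

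**Figure D5:**
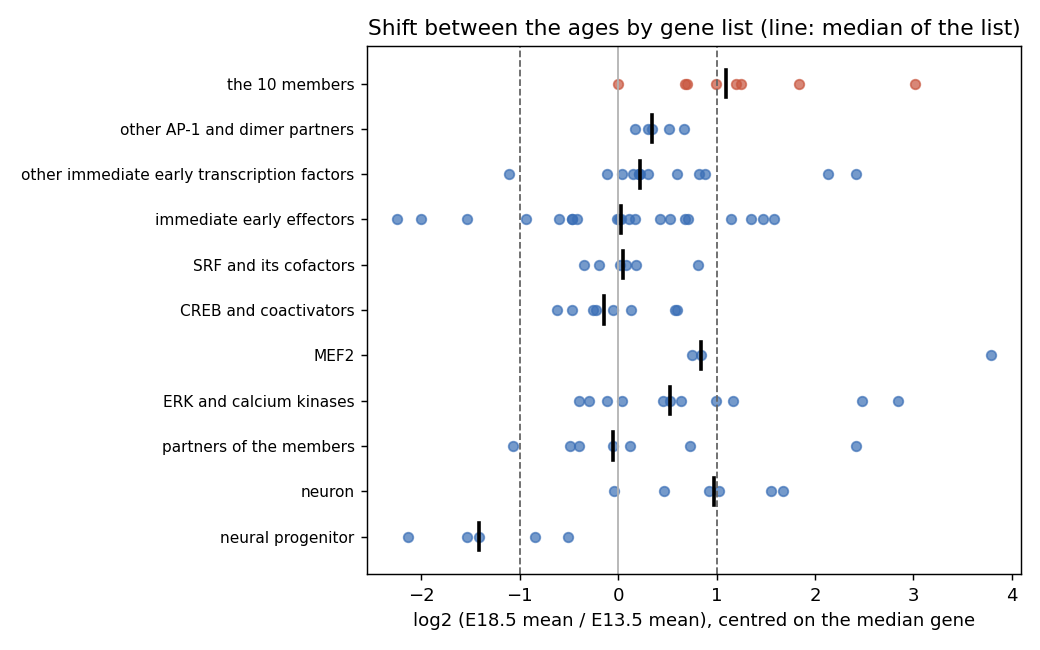
Centred shift of single genes (points, x axis, log2) in the members and in each list (rows), for genes with a mean of at least 10 at both ages; black lines are list medians and dashed lines the 2-fold limits. The 8 members that reached the minimum lie between 0.003 and 3.01, and the SRF and CREB lists lie within the limits.

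Markers of the cell types in the tissue also differed between the ages. For comparison, 12.1% of all genes were higher and 5.61% were lower past the fold. All 6 neuron markers were present, as the labelled tissue, brain, implies, with Tubb3 (neuronal tubulin) at means of 37118 and 29678. The summed level of the neuron markers was 118775 at E13.5 and 137202 at E18.5, with 3 of the 6 higher past the fold and a median shift of 0.98. The 5 neural progenitor markers summed to 42667 and 12074, with 3 lower past the fold and a median of -1.41. The microglia markers summed to 1206 and 1400, with 1 of 5 higher, and the endothelial ones to 7049 and 7361, with 1 of 5 higher. Fibroblast markers summed to 22937 and 13808, with 1 of 5 higher and 1 lower, the Schwann cell and neural crest list had 1 of 3 higher, and red cell markers summed to 4894 and 1697, with 3 of 4 lower. No marker of these lists was at 0. The part of these cell types in the shifts of the immediate early genes was not tested.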

How the data were processed

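Whole-brain RNA of 14 fetuses was sequenced (single-end) in 2 batches. The authors trimmed reads with cutadapt 3.1, aligned them to GRCm38 with STAR 2.5.3a, removed rRNA and tRNA reads with bedtools 2.26.0, counted reads per GENCODE gene with HTSeq (union mode, strand ignored), adjusted counts between batches with ComBat-seq and ran DESeq2 1.30.1 (R 4.0.3) within each age. The deposited signal used here is the authors' mean normalized count of a gene, averaged over all libraries of an age after division by size factors. The adjustment can change these means, and averaging hides the spread between fetuses. The other 6 columns of each table hold the authors' own comparison of genotypes (log2 fold change, its standard error, statistic, p-value, adjusted p-value and a significance mark) and were not used. Columns with values of single samples that were left out numbered 0. The count test planned for the genotypes could not be run on pooled means, and the depth behind each mean could not be read from the tables.

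Means were read with pandas 2.3.3 and numpy 2.4.6 (Python 3.11.15). Genes were matched to GENCODE M21 by identifier without version (41897 of 41934) for lengths and overlaps. Shifts were centred log2 ratios of the 2 means over genes with a mean of at least 10, with no pseudocount and no test, and the script was tested on simulated data. Motifs were searched in RefSeq promoters. Alternatives changed the centring, the minimum, the pseudocount, the length and the window. The members and gene lists were chosen with earlier results of these data known. Named genes are the members, Dio3 and, per list, at most 4 past the fold by size and at most 4 by level per kilobase; others are said to be named after their values were seen. Planned protein features were not analysed here.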

Additional observations from a re-analysis of the deposited data

How the results depend on the processing

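The 8 members with a shift kept their direction in the alternatives that gave them a value (7 for Fos, which misses a minimum of 50, and 8 for the others), except Jun, which was below 0 in 6 of 8 (lowest -0.28). Without centring, 2 members were higher past the fold in place of 4 (Egr1 0.91 and Npas4 0.96 fell under the limit) while 8.40% of all genes were higher and 10.1% lower past the fold. With genes above a mean of 0 at both ages included, 5 members were higher past the fold, while 17.3% of all genes were higher and 10.5% lower. Under the other 6 alternatives the count was 4, but with a minimum of 50 Fos dropped out and Nr4a1 (1.01) was past the fold; 2 of these, which scale each mean by the summed means of its age, were chosen after seeing the data. Over the alternatives the shift of Fosl2 ranged from 2.73 to 3.03 and that of Nr4a1 from 0.71 to 1.01. No paired analysis was possible because values per library were not used, and leaving out single replicates could not be run for the same reason. The pooled means limit all statements to description, percentiles depend on the genes ranked (Fos at E13.5 is at 9.01 among genes with a mean of at least 10), and low genes such as Egr2 and Fosb are the least certain.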
